A study of Mus musculus with 8 samples.

Results

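The medium spiny neuron genes described here are 8 genes (Ppp1r1b, Adora2a, Rgs9, Pde10a, Rasd2, Adcy5, Gng7 and Gnal) known for strong expression in the projection neurons of the striatum. They were taken by gene symbol from the deposited whole-brain table, and all 8 were found among its 24343 genes, with 12 of its 34535 transcripts. The study built a spatial atlas of cell types in the mouse brain and used bulk RNA-seq of whole brains as a reference. Brains came from 3 C57BL/6NCrl mice aged 56 to 62 days and kept under 1 condition, for which the labels name no transgene, no agent and no sex, with mice 1 and 2 giving 3 libraries each and mouse 3 giving 2. No source says how libraries of the same mouse differ, and their depth on transcripts was 1.31 to 2.02 gigabases.

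Medium spiny neurons receive dopamine from the midbrain and send inhibitory output to the pallidum and the substantia nigra. Dopamine receptors of the D1 type and the adenosine receptor encoded by Adora2a raise cyclic AMP in separate sets of these neurons through a stimulatory G protein of the olfactory type, built from the alpha subunit encoded by Gnal and the gamma subunit encoded by Gng7, which acts on the adenylyl cyclase encoded by Adcy5. Cyclic AMP activates protein kinase A, which turns DARPP-32 (Ppp1r1b) into an inhibitor of protein phosphatase 1. The phosphodiesterase encoded by Pde10a breaks cyclic nucleotides down, the RGS protein encoded by Rgs9 shortens G protein signals, and the small GTPase Rhes, encoded by Rasd2, dampens this signalling.

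All 8 genes were detected in every library, at levels that differed by nearly an order of magnitude. FPKM (fragments scaled to transcript length and library size) were summed over the transcripts of a gene and averaged over mice, and each SD is between mice with n = 3. Ppp1r1b was the highest at 89.7 ± 10.9 FPKM, at or above 97.37% of the genes in the table, and Adora2a was the lowest at 9.17 ± 0.833 FPKM, at or above 73.98%. Between them stood Gng7 (56.1 ± 16.5 FPKM), Gnal (38.7 ± 2.01 FPKM), Adcy5 (35.3 ± 3.77 FPKM), Rasd2 (32.9 ± 2.92 FPKM), Pde10a (23.1 ± 5.23 FPKM) and Rgs9 (15.5 ± 4.01 FPKM). The order of neighbours held in 8 of 8 libraries except for Gnal over Adcy5, which held in 7 libraries and 2 of 3 mice, and Adcy5 over Rasd2, which held in 7 libraries and all 3 mice. The order of Gnal, Adcy5 and Rasd2 was therefore not the same in every library. Across libraries the ranges of neighbours overlapped, except for Gng7 (lowest 41.8 FPKM) over Gnal (highest 41.7 FPKM). In the bulk tissue, fewer cells of a type and less RNA per cell cannot be told apart.

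**Figure D1:**
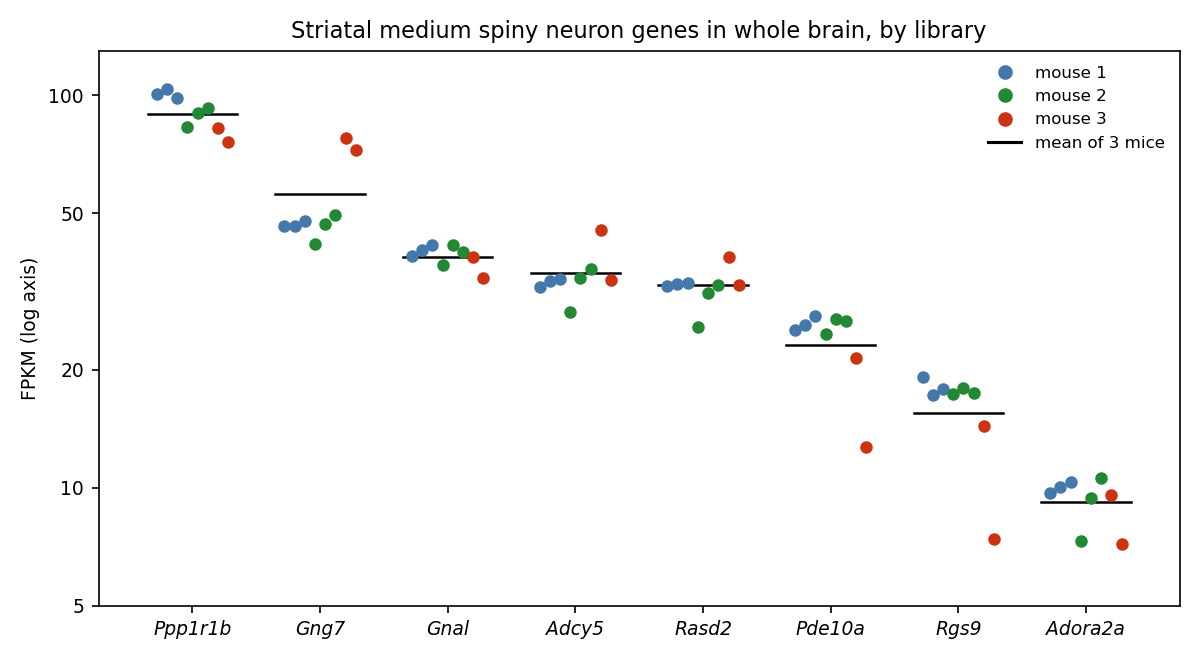
FPKM of each gene (log axis) in the 8 libraries, colored by mouse, with the mean of 3 mice as a bar. Gng7 stood higher in both libraries of mouse 3 (77.9 and 72.4 FPKM), whereas Rgs9 and Pde10a were lowest in library 2 of that mouse (7.39 and 12.7 FPKM).

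The single-condition design left a comparison of the individual mice, in which limma's F-test with moderated variances was run on log2(FPKM + 1) for every gene whose mean reached 1 FPKM. The p-values set differences between these 3 mice against the spread between libraries of the same mouse, which may be technical. Of the 13001 genes tested, 25.5% had an adjusted p under 0.05, 14.1% with mouse 3 above the mean of mice 1 and 2 and 11.3% with mouse 3 below it. Of the calls, 55.4% were higher in mouse 3, and 12.6% when libraries were scaled to the same total. Of the 8 genes, 3 were called, namely Gng7, which was higher in mouse 3, and Pde10a and Ppp1r1b, which were lower. Both libraries of mouse 3 lay above the other 6 for 1 of the 8 genes, against 26.5% of all genes tested, and below them for 3 of the 8, against 21.7%. Counts of this size among 8 genes stood near the background and are given as a description of the members. The calls depended on library 2 of mouse 3, as given with the processing below. Leaving out either library of mouse 3 leaves that mouse a single library with no spread of its own. Only the sizes of the differences are therefore read from those fits here. Without library 2 of mouse 3 the differences were smaller in size for Pde10a, Rgs9 and Ppp1r1b and not for Gng7, as given with each gene. With library 1 of mouse 3 left out instead, the differences were -1.16 for Rgs9, -0.99 for Pde10a, -0.31 for Ppp1r1b and 0.63 for Gng7.

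Adora2a encodes the stimulatory adenosine receptor of medium spiny neurons that project to the external pallidum (chr10:75316877-75334792, mm10, plus strand, 3 exons). It measured 9.71, 10.05 and 10.3 FPKM in mouse 1, 7.31, 9.40 and 10.6 FPKM in mouse 2, and 9.57 and 7.17 FPKM in mouse 3. Mouse 2 overlapped both other mice while mouse 3 lay below mouse 1, and no difference was called (mouse 3 minus the mean of mice 1 and 2, -0.18 on the log2 scale, SE 0.14, adjusted p = 0.436). Among the 4 adenosine receptor genes it held 20.2% ± 1.80 of the summed FPKM. Adora1, the widely expressed inhibitory receptor, was the highest at 33.6 ± 0.637 FPKM, and Adora2b (2.15 ± 0.621 FPKM) and Adora3 (0.340 ± 0.0928 FPKM) were lower. Its level was close to that of Drd2, the dopamine receptor of the same neurons, with a ratio of 1.04 ± 0.0858.

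Gnal encodes the alpha subunit that couples these dopamine and adenosine receptors to the cyclase. It measured 38.9, 40.4 and 41.5 FPKM in mouse 1, 36.9, 41.7 and 39.9 FPKM in mouse 2, and 38.6 and 34.3 FPKM in mouse 3. This was the smallest spread of the 8 genes, with a coefficient of variation of 5.2% between mice. Mouse 3 overlapped mouse 2 but lay below mouse 1 (-0.13 on the log2 scale, adjusted p = 0.449), and with libraries scaled to the same total the difference was -0.43 and was called (adjusted p = 0.0231). The related Gnas, used in most other cells, was at 639 ± 29.9 FPKM, so that Gnal made up 5.75% ± 0.399 of the sum of both.

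Gng7 encodes the gamma subunit that pairs with this alpha subunit in the striatum (chr10:80948624-81014925, mm10, minus strand). It measured 46.4, 46.5 and 47.9 FPKM in mouse 1, 41.8, 46.9 and 49.6 FPKM in mouse 2, and 77.9 and 72.4 FPKM in mouse 3, so that both libraries of mouse 3 lay above the other 6. The mouse 3 mean was 1.62 times the mean of the other mice (0.68 on the log2 scale, adjusted p = 0.00699). The proportion to its partner differed as well, the ratio of Gng7 to Gnal being 1.13 to 1.24 in the libraries of mice 1 and 2 and 2.01 and 2.11 in mouse 3. Without library 2 of mouse 3 the difference was 0.73 with an adjusted p of 0.0544. RefSeq gives the gene a distal and an internal start, with the same coding length of 69 codons in GENCODE. The distal transcript (NM_010319) made up 92.3% ± 2.17 of the FPKM and the internal one (NM_001038655) 7.75% ± 2.17. The distal transcript was higher in mouse 3 (72.8 and 63.0 FPKM against 38.9 to 44.9). The internal one was at 5.04 and 9.39 FPKM there, against 1.53 to 4.90 FPKM. Its deposited bounds in library 1 of mouse 3 (4.08 to 6.00 FPKM) overlapped those in library 3 of mouse 2 (3.98 to 5.81 FPKM).

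The 250 bases before each Gng7 start are shown because the starts differ in output (RefSeq, GRCm38.p6, minus strand, chr10:81014926-81015175 for the distal start and chr10:81001366-81001615 for the internal start). Capitals mark motif matches on either strand, searched as the GC box GGGCGG, the CCAAT box CCAAT, the TATA box TATAAA, the cAMP response element half-site TGACG and the E-box CACGTG.
Gng7 distal start: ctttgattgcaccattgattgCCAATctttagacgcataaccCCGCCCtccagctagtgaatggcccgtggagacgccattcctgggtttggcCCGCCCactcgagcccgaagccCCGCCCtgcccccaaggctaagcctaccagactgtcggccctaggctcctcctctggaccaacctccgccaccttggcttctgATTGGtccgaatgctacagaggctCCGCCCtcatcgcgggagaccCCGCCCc
Gng7 internal start: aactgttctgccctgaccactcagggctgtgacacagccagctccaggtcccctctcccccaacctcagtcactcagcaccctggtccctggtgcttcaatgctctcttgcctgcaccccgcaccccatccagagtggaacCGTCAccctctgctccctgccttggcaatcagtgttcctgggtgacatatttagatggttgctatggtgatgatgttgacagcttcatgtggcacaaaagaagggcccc
The distal stretch held 15 CpG dinucleotides, 5 GC boxes and 2 CCAAT boxes, whereas the internal stretch held 2 CpG dinucleotides and 1 half-site. At least 1 match of the same window was found in 32.7% of 32851 RefSeq promoters for the GC box, 33.8% for the CCAAT box, 12.4% for the TATA box, 17.8% for the half-site and 6.02% for the E-box.

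Gng7 had rank 3 of 12 gamma subunit genes, with 11.9% ± 0.936 of their summed FPKM. Gng13, a subunit of Purkinje cells and olfactory neurons among others, was higher at 125 ± 51.9 FPKM, as was the pan-neuronal Gng3 at 99.4 ± 8.11 FPKM. Of the 10 gamma subunit genes tested, 7 were called, against 25.5% of all genes, 6 of them higher in mouse 3 (Gng7, Gng13, Gng5, Gng10, Gng11 and Gng12) and Gng2 lower, with a median of 0.59 against 0.02 over all genes tested. With each library's trend with transcript length removed, the median was 0.01 and Gng5 had the opposite sign. The 4 genes then called, against 2634 of all 13001 genes tested, were Gng7, Gng10 and Gng12, higher in mouse 3, and Gng2, lower. Without library 2 of mouse 3 the median was 0.54. The share of Gng7 within the family was 14.6% in library 1 of mouse 3 and 10.9 to 11.9% in the other 7 libraries.

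Adcy5 encodes the main adenylyl cyclase of medium spiny neurons (chr16:35155636-35304549, plus strand, 21 exons). It measured 32.6, 33.7 and 34.0 FPKM in mouse 1, 28.1, 34.2 and 36.2 FPKM in mouse 2, and 45.4 and 33.8 FPKM in mouse 3. Library 1 of mouse 3 was the highest while library 2 lay within the range of the other mice, and no difference was called (0.24 on the log2 scale, SE 0.13, adjusted p = 0.340). With libraries scaled to the same total the difference was -0.05. Adcy5 held 22.8% ± 0.964 of the FPKM of 10 cyclase genes, second to Adcy1 (59.5 ± 7.54 FPKM), a calmodulin-regulated enzyme of cortex, hippocampus and cerebellum, and above Adcy2 (29.6 ± 1.09 FPKM). The other 7 ranged from 0.0251 FPKM for Adcy10 to 9.40 FPKM for Adcy9. By limma 0 of the 8 cyclase genes tested were called, although 3 (Adcy1, Adcy6 and Adcy9) had an unadjusted p under 0.05. The share of all genes at that unadjusted level was not computed. With libraries scaled to the same total, 3 of the 9 then tested were called lower in mouse 3, against 4535 of 14770 genes in all. With the length trend removed, 1 of 8 was called higher, against 1410 of 13001 genes.

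Pde10a encodes a phosphodiesterase that hydrolyses cyclic AMP and cyclic GMP and is abundant in all medium spiny neurons (chr17:8526801-8986648, plus strand). It measured 25.2, 26.0 and 27.5 FPKM in mouse 1, 24.6, 27.0 and 26.6 FPKM in mouse 2, and 21.5 and 12.7 FPKM in mouse 3. Both libraries of mouse 3 lay below the other 6, and they also differed from each other (-0.63 on the log2 scale, adjusted p = 0.0479). The call did not hold in 11 of 15 alternatives, and without library 2 of mouse 3 the difference was -0.27 (adjusted p = 0.203). Among 21 cyclic nucleotide phosphodiesterase genes Pde10a had rank 5 with 7.84% ± 1.40 of the FPKM, after Pde2a (61.7 ± 1.99 FPKM), Pde1b (58.2 ± 3.64 FPKM), Pde1a (37.2 ± 4.97 FPKM) and Pde4b (25.8 ± 1.03 FPKM). Of the 15 genes tested, 5 were called, against 25.5% of all genes, Pde8a (8.11 ± 2.76 FPKM) higher in mouse 3 and Pde1a, Pde4d, Pde7a and Pde10a lower. Once the length trend was removed, 1 of the 15, Pde8a, was called, against 2634 of all 13001 genes tested. The photoreceptor enzymes Pde6a, Pde6b and Pde6c were at 0.0389 to 0.103 FPKM.

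The Pde10a transcript from the downstream start (NM_011866, chr17:8801745-8986648, 22 exons, 796 codons) was at 6.08 FPKM in library 2 of mouse 3 (deposited bounds 5.44 to 6.73) and at 12.7 to 20.3 FPKM in the other 7 libraries. The transcript from the upstream start (NM_001290707, chr17:8526801-8986648, 23 exons, 850 codons) was at 6.61 FPKM in that library, within the 6.15 to 11.9 FPKM of the others. The downstream start made up 62.1% ± 8.56 of the FPKM, from 47.9% to 76.3% over libraries, the widest range of the 4 genes with 2 transcripts. Its share was 47.9% in library 2 of mouse 3 and 51.5% in library 1 of mouse 2, and a change in the use of starts was not tested. The 250 bases before the downstream start are shown as those of the start with the higher mean share (RefSeq, GRCm38.p6, plus strand, chr17:8801495-8801744, capitals as for Gng7).
Pde10a downstream start: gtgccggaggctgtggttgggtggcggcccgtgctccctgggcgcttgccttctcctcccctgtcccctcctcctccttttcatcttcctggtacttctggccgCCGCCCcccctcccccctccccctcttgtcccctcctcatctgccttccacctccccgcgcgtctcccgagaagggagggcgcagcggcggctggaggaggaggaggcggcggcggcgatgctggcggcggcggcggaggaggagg
The stretch had a GC content of 72.8%, 21 CpG dinucleotides and 1 GC box, with no match of the other 4 motifs.

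Ppp1r1b encodes DARPP-32, the phosphatase inhibitor that integrates dopamine and glutamate signals (chr11:98348738-98357795, mm10, plus strand). It measured 101, 104 and 98.5 FPKM in mouse 1, 83.1, 90.2 and 92.8 FPKM in mouse 2, and 82.4 and 76.2 FPKM in mouse 3. Each library of mouse 1 lay above each of the others, and each of mouse 3 lay below each of the others (-0.25 for mouse 3 on the log2 scale, SE 0.076, adjusted p = 0.0415). The call held in 7 of 15 alternatives, with the same direction in all 15. Without library 2 of mouse 3 the difference was -0.20. Ppp1r1b made up 73.6% ± 4.83 of the FPKM of the 3 related inhibitor genes, the others being Ppp1r1a (31.9 ± 5.01 FPKM) and Ppp1r1c (0.131 ± 0.0554 FPKM). The ratio of Ppp1r1b to Ppp1r1a was 3.03 to 3.53 in mice 1 and 2 and 2.37 and 1.92 in mouse 3.

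Rgs9 encodes a GTPase-activating protein that works with the beta subunit encoded by Gnb5 (chr11:109225355-109298181, minus strand). It measured 19.1, 17.2 and 17.8 FPKM in mouse 1, 17.3, 18.0 and 17.4 FPKM in mouse 2, and 14.4 and 7.39 FPKM in mouse 3. Both libraries of mouse 3 lay below the other 6, yet the test narrowly missed the threshold (-0.73 on the log2 scale, adjusted p = 0.0504). It passed in 4 of 15 alternatives, and without library 2 of mouse 3 the difference was -0.29 (adjusted p = 0.158). Rgs9 and Pde10a kept a similar proportion across libraries, the ratio being 0.649 to 0.759 in mice 1 and 2 and 0.671 and 0.582 in mouse 3. Within the R7 family Rgs9 held 25.8% ± 4.28, after Rgs7 (29.7 ± 2.33 FPKM) and before Rgs6 (10.8 ± 1.33 FPKM) and Rgs11 (3.41 ± 1.40 FPKM), of which Rgs11 was called lower in mouse 3.

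The transcripts of Rgs9 encode the long form known from striatum (NM_011268, 675 codons, 19 exons) and the short form known from photoreceptors (NM_001165934, 484 codons, 17 exons), and they share a start. The long form made up 82.3% ± 0.965 of the FPKM, from 80.6% to 84.9% over the 8 libraries. Its share was 82.0% in library 2 of mouse 3, so that both forms were lower there in proportion (6.06 and 1.33 FPKM, against 11.6 to 16.0 and 2.60 to 3.35 FPKM elsewhere).

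Rasd2 encodes Rhes, a small GTPase of the striatum (chr8:75213944-75224113, plus strand). It measured 32.7, 33.01 and 33.3 FPKM in mouse 1, 25.7, 31.4 and 32.9 FPKM in mouse 2, and 38.8 and 32.8 FPKM in mouse 3. The mice overlapped (0.18 on the log2 scale, adjusted p = 0.271), and with libraries scaled to the same total the value was -0.11. Rasd2 made up 88.6% ± 0.749 of the sum with its homolog Rasd1, which was at 4.20 ± 0.128 FPKM.

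**Figure D2:**
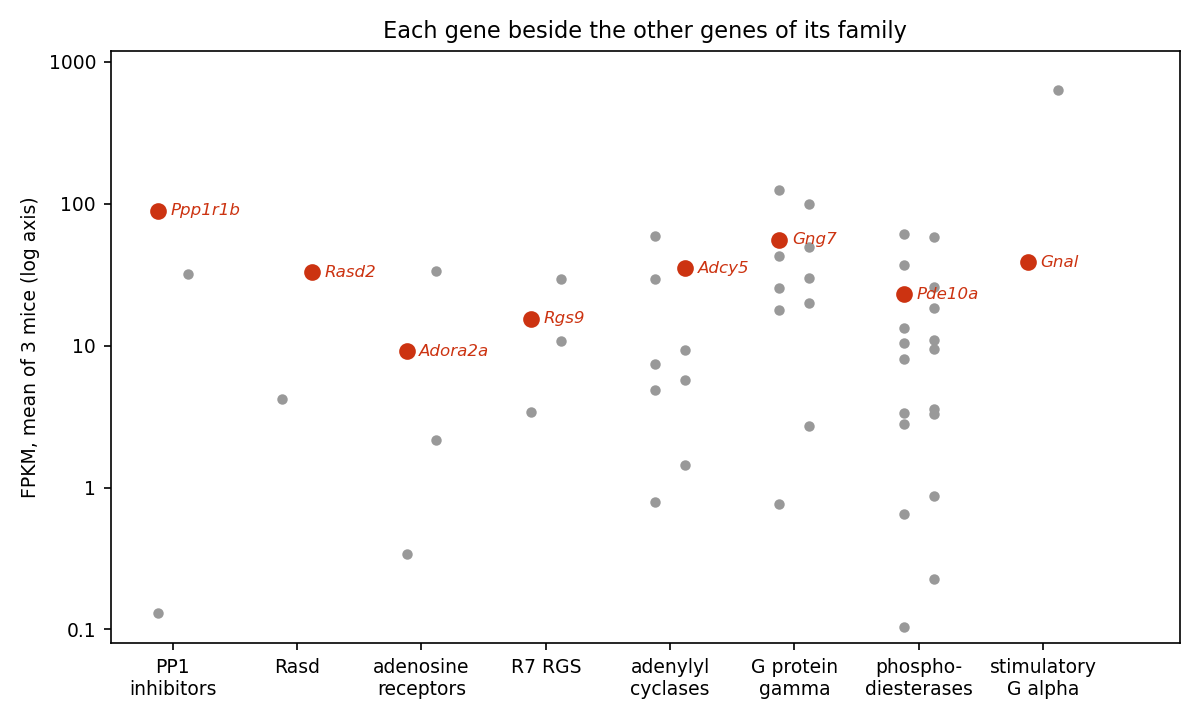
Mean FPKM over 3 mice (log axis) of each gene with at least 0.1 FPKM in the 8 families, with the striatal gene in red and its relatives in gray. Ppp1r1b and Rasd2 were the highest of their families, whereas Gnal stood far below Gnas (38.7 against 639 FPKM).

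The Gnal transcripts differed in start (chr18:67088298-67226791 for NM_177137 with 448 codons, chr18:67133560-67226791 for NM_010307 with 381 codons). The shorter form made up 68.2% ± 4.77 of the FPKM. In library 2 of mouse 3 it was at 19.8 FPKM, below the 26.2 to 30.3 FPKM of the other 7 libraries, while the longer form was at 14.4 FPKM, above their 8.62 to 13.2 FPKM. The bounds of the longer form there (13.2 to 15.7 FPKM) overlapped those of library 3 of mouse 2 (12.0 to 14.4 FPKM), and the gene total of that library was the lowest of the 8. Single transcript values rest on how reads were divided between overlapping forms, and the deposited bounds of the 12 transcripts spanned 3.59% to 33.8% of the value on either side.

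**Figure D3:**
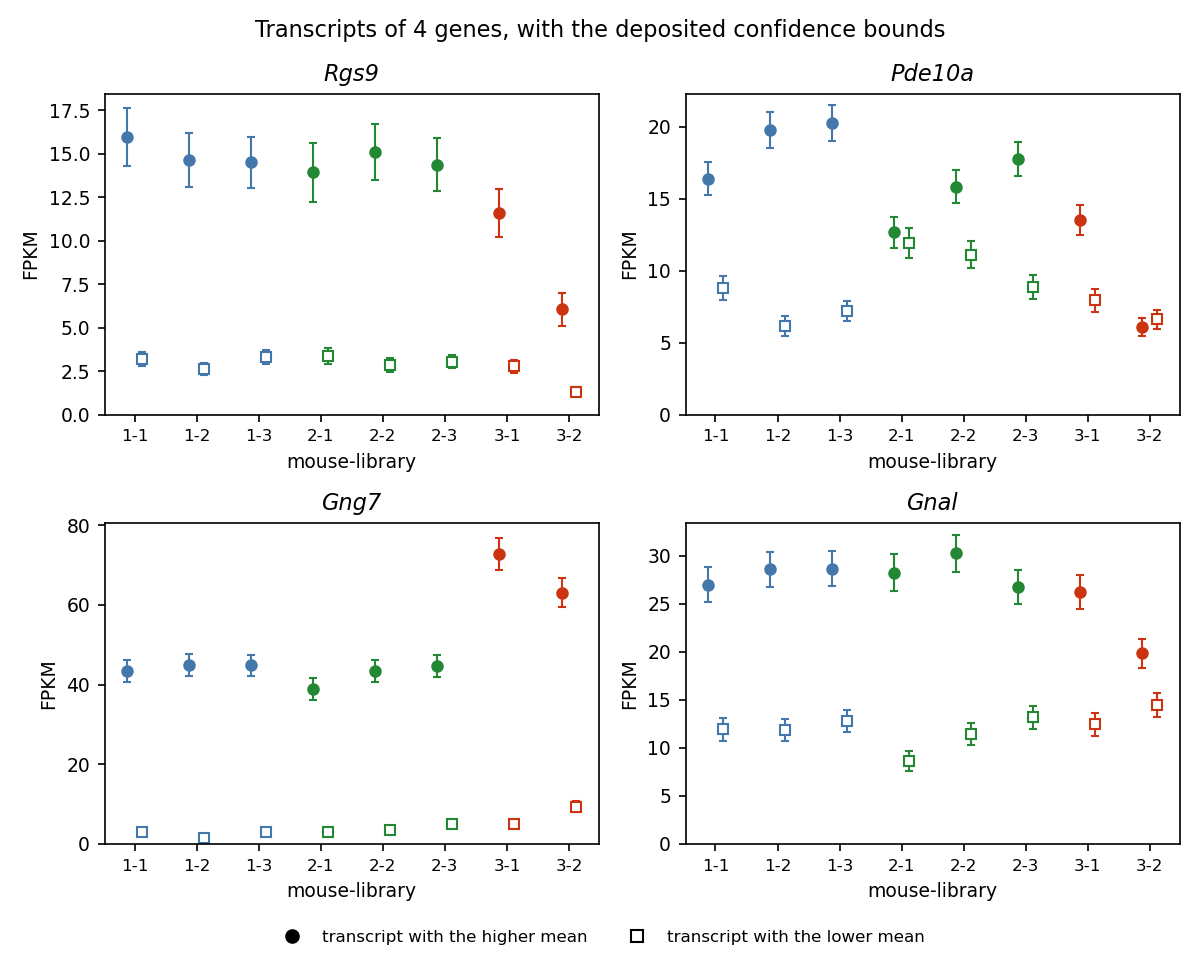
FPKM of both transcripts of Rgs9, Pde10a, Gng7 and Gnal in each library, named by mouse and library, with the deposited confidence bounds as bars. In library 2 of mouse 3 the downstream-start Pde10a transcript was at the level of the upstream-start one (6.08 and 6.61 FPKM).

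Differences of mouse 3 varied with transcript length over all genes. The median was 0.42 on the log2 scale among the 20% of genes whose transcripts were shortest and -0.20 among the 20% whose transcripts were longest, and the rank correlation of a gene's deviation with length was 0.182 to 0.502 across genes in the libraries of mice 1 and 2 and -0.364 and -0.574 in those of mouse 3 (genes are not independent replicates). Set against genes of like length, Gng7 and Adcy5 lay above the 90th percentile, Rgs9, Pde10a and Ppp1r1b below the 10th, and Adora2a, Rasd2 and Gnal within. With the length trend removed from each library, Gng7 (0.72, adjusted p = 0.00216) and Ppp1r1b (-0.45, adjusted p = 0.0127) were called, whereas Pde10a (-0.39, adjusted p = 0.0911), Rgs9 (-0.76, adjusted p = 0.0582) and Adcy5 (0.38, adjusted p = 0.0656) were not.

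**Figure D4:**
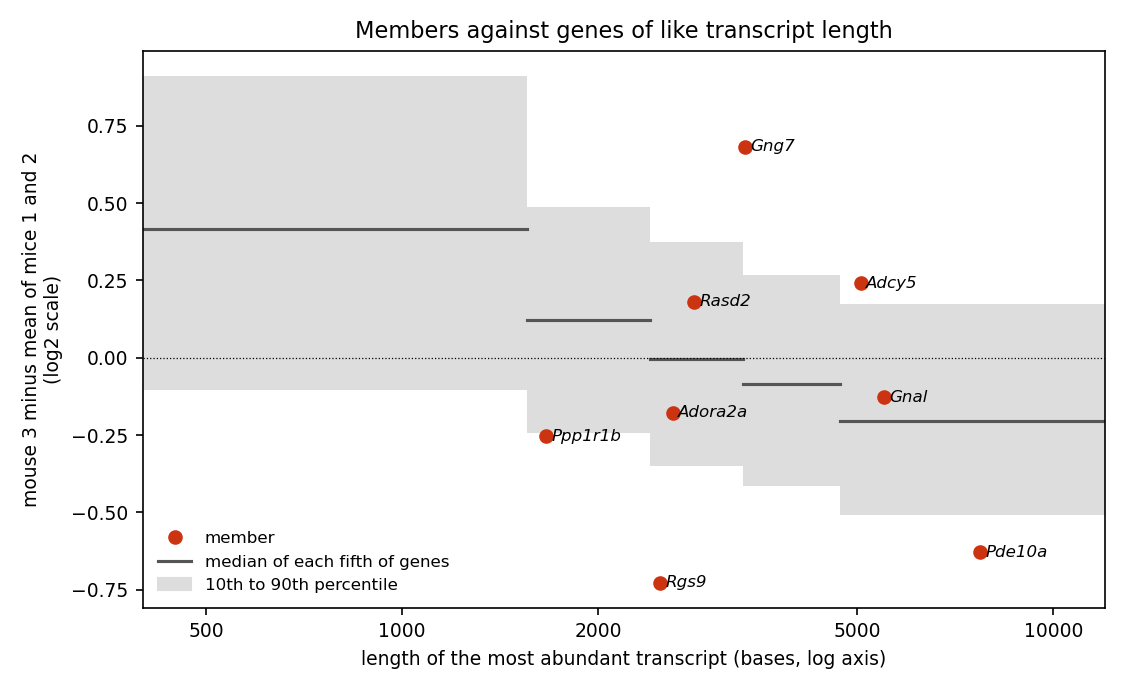
Difference of mouse 3 from the mean of mice 1 and 2 (log2 scale) against transcript length in bases (log axis), with the median and the 10th to 90th percentile of all genes tested, split by length into 5 sets of equal size. Gng7 (0.68) lay above and Rgs9 (-0.73) below the band of genes of like length.

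Other genes of medium spiny neurons were read from lists of known members, whose counts stand against 25.5% of all genes tested being called, 14.1% higher and 11.3% lower in mouse 3. The markers of both neuron classes were present at like levels, with Drd1 at 8.65 ± 0.141 FPKM and Drd2 at 8.94 ± 1.22 FPKM, a ratio of 1.00 ± 0.167. Of 13 receptor and peptide genes, 11 were tested, with a median of -0.23. The 1 called was the cannabinoid receptor Cnr1 (33.02 ± 4.75 FPKM), which was lower in mouse 3. Tac1 (31.2 ± 7.23 FPKM) had the largest difference of the list and went the other way, at 0.52, but was not called (limma, adjusted p = 0.0557). The highest were Penk (90.1 ± 3.48 FPKM), the enkephalin precursor, and Adora1. Of 11 striatal transcription factors 5 were called, all lower in mouse 3, with a median of -0.29. They included Foxp2 (-0.61), Sp9 (-0.57) and Foxp1 (-0.56), and the highest in level was Meis2 at 28.9 ± 2.47 FPKM, followed by Foxp1 (12.9 ± 2.81 FPKM) and Bcl11b (9.14 ± 1.96 FPKM). With the length trend removed, 2634 of all 13001 genes were called. Cnr1 was then at -0.19 and not called (limma, adjusted p = 0.132), while 1 other receptor or peptide gene was called lower. Of the transcription factors 4 were then called, all lower, Foxp2, Sp9 and Foxp1 among them.

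Of 21 partners in cyclic AMP and DARPP-32 signalling, 7 were called, against 25.5% of all genes tested, with a median of -0.20. The phosphatase 1 catalytic subunit Ppp1ca was higher in mouse 3 (0.68), and 6 were lower, among them the calcineurin subunit Ppp3ca (-0.69) and the Cdk5 activator Cdk5r1 (-0.45). The highest in level were Ppp3r1 (237 ± 30.8 FPKM), Gnb1 (208 ± 12.6 FPKM) and Prkar1a (190 ± 5.29 FPKM). Of 16 further striatum-enriched genes 4 were called, Syndig1l higher (0.38) and Actn2 (-0.73), Dclk3 (-0.51) and Ano3 (-0.35) lower, with a median of -0.12, and the highest were Pde1b, Spock3 (50.6 ± 4.22 FPKM) and Scn4b (41.9 ± 5.25 FPKM). Without library 2 of mouse 3, the call of Ppp3ca remained and the other 16 calls of these 4 lists did not, while all 17 differences kept their sign. Some were of like size, such as Cnr1 (-0.38) and Syndig1l (0.39), and others smaller, such as Foxp1 (-0.35) and Actn2 (-0.49). With the length trend removed, 7 of the 21 partners and 4 of the 16 further genes were called, against 2634 of all 13001 genes. The calls named in this paragraph held there except that of Ano3 (-0.17, limma, adjusted p = 0.138).

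Markers of other regions differed in mouse 3 to unequal extents, and their counts stand against 25.5% of all genes tested being called. By limma 0 of 5 cerebellum markers were called. An unadjusted p under 0.05 was found for 1 of them, a level whose share over all genes was not computed. For thalamus (Tcf7l2) and choroid plexus (Kl), 1 of 5 each was called lower. The 5 cerebellum markers summed to 229 to 260 FPKM in mice 1 and 2 and to 264 and 403 FPKM in mouse 3. The 5 olfactory epithelium markers, of which Gng13 gave most and Omp was at 2.00 ± 1.23 FPKM, summed to 77.2 to 114 FPKM and then 158 and 223 FPKM. Of the 3 olfactory epithelium markers tested, Omp (0.92) and Gng13 (0.93) were called higher in mouse 3, and Ano2 was at -0.28. With the length trend removed, Omp was at 0.82 (limma, adjusted p = 0.0265) and Gng13 at 0.05 (adjusted p = 0.375). The 5 thalamus markers summed to 42.6 to 49.9 FPKM and then 36.6 and 43.6 FPKM. The 5 choroid plexus markers summed to 322 to 552 FPKM and then 435 and 566 FPKM, most of it Ttr (472 ± 52.3 FPKM). Differences of these 5 markers had a median of -0.02 and reached 0.29 at the highest, with Kl at -0.68 and Clic6 at -0.41. No gene of these lists was at 0 in every library, and their part in the differences of the striatal genes was not tested.

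**Figure D5:**
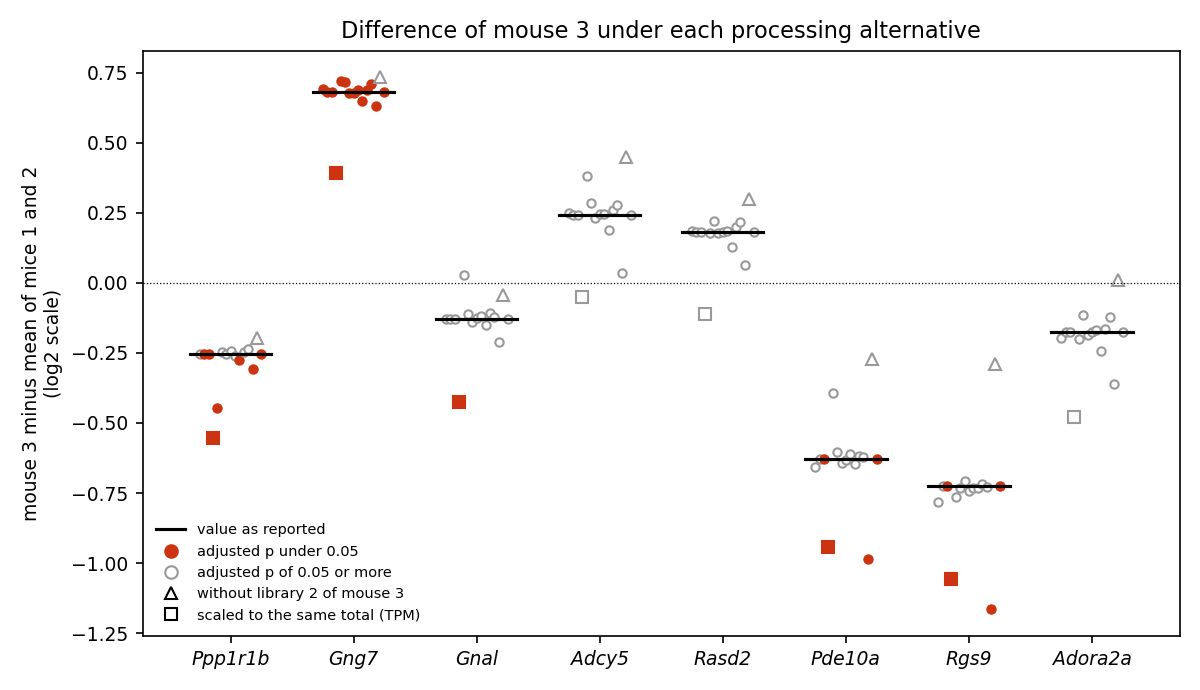
Difference of mouse 3 from the mean of mice 1 and 2 (log2 scale) of each gene, as reported (bar) and under 15 alternatives (points), with filled red points where the adjusted p was under 0.05. Gng7 was called in 14 of 15 alternatives, and Pde10a and Rgs9 were nearest to 0 without library 2 of mouse 3.

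The 8 genes followed their mean profile, which includes each of them, to different degrees. The root mean square difference of a gene's centered log2(FPKM + 1) values from the mean of the 8 genes was 0.0658 for Gnal, 0.0777 for Adora2a, 0.109 for Ppp1r1b, 0.134 for Rasd2 and 0.154 for Adcy5, below the median of 0.186 over 8778 genes with at least 5 FPKM, and it was 0.248 for Pde10a, 0.307 for Rgs9 and 0.346 for Gng7, above that median. The nearest genes outside the 8 were Nisch (0.0329), Klhl29 (0.0337) and Gtf2i (0.0338), over 8 libraries of 3 mice.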

How the data were processed

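Whole-brain mRNA of 3 mice was sequenced as 8 libraries by the authors with a Kapa mRNA HyperPrep kit. The authors deposited FPKM for each RefSeq transcript and library, with confidence bounds and read coverage (a signal per base that the authors did not scale for library size), and the submitters' processing notes name TopHat, Cufflinks and mm10 without versions. The read length, strand setting and number of reads were not given in the sources used here, so no counting intervals were added to the deposited bounds of single transcripts, and the precision of gene sums is given by the spread between libraries or mice. Bases read per library were estimated as coverage multiplied by length.

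FPKM were summed over a gene's transcripts and averaged per mouse and then over mice. The mice were compared with limma 3.58.1 (R 4.3.3), a moderated F-test on log2(FPKM + 1) for genes whose mean reached 1 FPKM, with p adjusted over all of them after Benjamini and Hochberg and a threshold of 0.05. Fold changes on this scale understate those of low genes. The test was tried on simulated data. Alternatives were a pseudocount of 0.1, no filter, a minimum of 5 FPKM, scaling to the same total (TPM), removal of each library's length trend, a block for library number, each library left out and, chosen after seeing the data, a trend in the prior variance.

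The named genes are the 8 members, all genes of 8 families, from each other list the 3 highest and up to 3 called genes whose mouse means ranged most, the 3 genes nearest in profile and marker genes. Ano3 lies outside this rule and was named after its values were seen. The retina and cortex marker lists are not reported here. The members and lists were chosen with earlier results of these data known. Exons and codons come from GENCODE M21, and a RefSeq promoter at the deposited start was found for 4 members. Computations used Python 3.11.15 with pandas 2.3.3 and numpy 2.4.6.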

Additional observations from a re-analysis of the deposited data

Results flagged for a closer look

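Single libraries stood apart from the other 7 by Dixon's test (critical value 0.526 for 8 libraries) in 11 of 28 measures of the members. Chance gives about 5% for independent values, but libraries of a mouse and transcripts of a gene are not independent. The share over all genes was not computed, so the count is not read as particular to these genes. Over all genes tested, both libraries of mouse 3 lay above the other 6 for 26.5% and below them for 21.7%. Library 2 of mouse 3 was the one apart in 8 of the 11 measures. There Rgs9 was at 7.39 FPKM (next 14.4), with its transcripts NM_011268 at 6.06 FPKM (next 11.6) and NM_001165934 at 1.33 FPKM (next 2.60), and its share of the R7 family was 14.8% (next 26.7%). Pde10a was at 12.7 FPKM (next 21.5) and held 5.06% of its family (next 7.39%). The Gnal transcript NM_010307 was at 19.8 FPKM (next 26.2), and the Gng7 transcript NM_001038655 was at 9.39 FPKM (next 5.04).

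Library 1 of mouse 3 was the one apart in 3 measures. Adcy5 was at 45.4 FPKM there (next 36.2) and held 25.2% of the cyclase family (next 23.0%), and Gng7 held 14.6% of the gamma subunit family (next 11.9%).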

How the results depend on the processing

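Over all genes, 3310 were called, and 5191 when libraries were scaled to the same total, which also raised the values so that 14770 genes in place of 13001 passed the minimum. Under that scaling the median difference of all genes was -0.24 in place of 0.02, a shift of -0.26. The share of calls higher in mouse 3 was 55.4% as reported, 12.6% under that scaling and 67.9% with a block for library number. Relative to that median of -0.24 the members differed by -0.81 (Rgs9), -0.70 (Pde10a), -0.31 (Ppp1r1b), -0.23 (Adora2a), -0.18 (Gnal), 0.13 (Rasd2), 0.19 (Adcy5) and 0.63 (Gng7). Of the 8 members, 3 were called as reported, 5 under the same-total scaling and 1 with a pseudocount of 0.1. Whether the library numbers pair the samples was not settled. The correlation of deviations was 0.00276 to 0.107 in the 7 same-number pairs, over 0.1 in 1 of them, against -0.135 to 0.0645 for other numbers. Of the 8 libraries, 5 correlated best with their own number. With 2 libraries, the deviations of mouse 3 mirror each other, so its pairs cannot decide this. With the replicate block 2995 genes and 1 member, Gng7, were called. Leaving out 1 library gave 126 to 3873 genes and 0 to 4 members, the lowest of both without library 2 of mouse 3. Without libraries 1, 2 and 3 of mouse 1, which leaves mouse 1 with 2 libraries, 1909, 1785 and 1671 genes and 1 member each were called. Without 1 library of mouse 3 the remaining one was assumed to vary like those of the other mice.

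The sign of uncalled differences turned in 4 of 120 member values, under the same-total scaling for Adcy5 (-0.0511) and Rasd2 (-0.11), with the length trend removed for Gnal (0.0281) and without library 2 of mouse 3 for Adora2a (0.00851, against -0.363 without library 1). Called members kept their direction in all 15 alternatives. The adjusted p ranged from 0.00216 to 0.0544 for Gng7, 0.00872 to 0.15 for Ppp1r1b and 0.00481 to 0.203 for Pde10a. Causes of these changes were not tested. With the highest transcript alone, the share of its family was 33.4% for Adora2a, 32.1% for Rgs9 and 7.22% for Gnal.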
